A study of Mus musculus with 2 samples.

Results

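Transcripts of 8 genes grouped as neuronal or synaptic were followed in iPSCs of the mouse, induced pluripotent stem cells made by reprogramming somatic cells. The genes were Nptx2, Stx1a, Cbarp, Dgkz, Rnf208, Tubb3, Stmn2 and Coro2b, chosen as members of that group with signal on at least 1 array. They stand among 12393 genes that own a probe set. They were also selected on measured values, since several of them were picked for the size of their difference between the 2 arrays, so their values are a description and carry no test. The study compared 1 hybridized sample of iPSCs with 1 live sample of iPSCs, each measured on 1 array. Cells of both samples were kept in serum with the 2i inhibitors, which block the kinases MEK and GSK3 and favour the naive pluripotent state. The labels give no strain, no donor cell, no reprogramming method and no line for either sample, and do not say with what or how the cells were hybridized.

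Neurons share a set of structural and secretory proteins that most other cells make little of. Release of transmitter depends on SNARE proteins, which pull a vesicle and the plasma membrane together when calcium enters through voltage-gated channels. Axons and dendrites depend on tubulin isotypes and tubulin-binding proteins such as the stathmins, and the cortical actin under the membrane is shaped by coronins. In cells outside the nervous system many such genes are held down by the repressor REST and its corepressors, yet some neuronal transcripts are detected in cultures of pluripotent cells.

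The values are log2 GCRMA signals of probe sets, groups of short probes that read 1 transcript. A value of 5 as the mean of the 2 arrays was used as the level from which a gene was compared, and each difference is given as hybridized minus live on the log2 scale. A difference of at least 1 in size is called 2-fold. With 1 array in each group there is no replicate error and no test, the number of arrays limits the precision, and hybridization and any other difference between the 2 preparations cannot be told apart. Probe sets differ in how brightly they report a transcript, so signals are compared between arrays and not between genes.

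Of the 8 genes, 7 were at least 2-fold lower in hybridized cells and 1, Stmn2, was at least 2-fold higher. Among all 7262 genes at the level, 15.4% were at least 2-fold lower and 8.43% at least 2-fold higher. Centred on the hybridization controls described below, these shares turned over to 2.84% lower and 31.8% higher. Because this contrast helped to choose the 8 genes, their counts are not read against those shares. Their median difference was -2.61, while that of all genes at the level was -0.17. The 8 genes are covered by 14 probe sets, of which 12 were lower and 2 higher in hybridized cells. All 8 had a mean at the level, Rnf208 only just with 5.07 and Coro2b with 5.31.

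**Figure D1:**
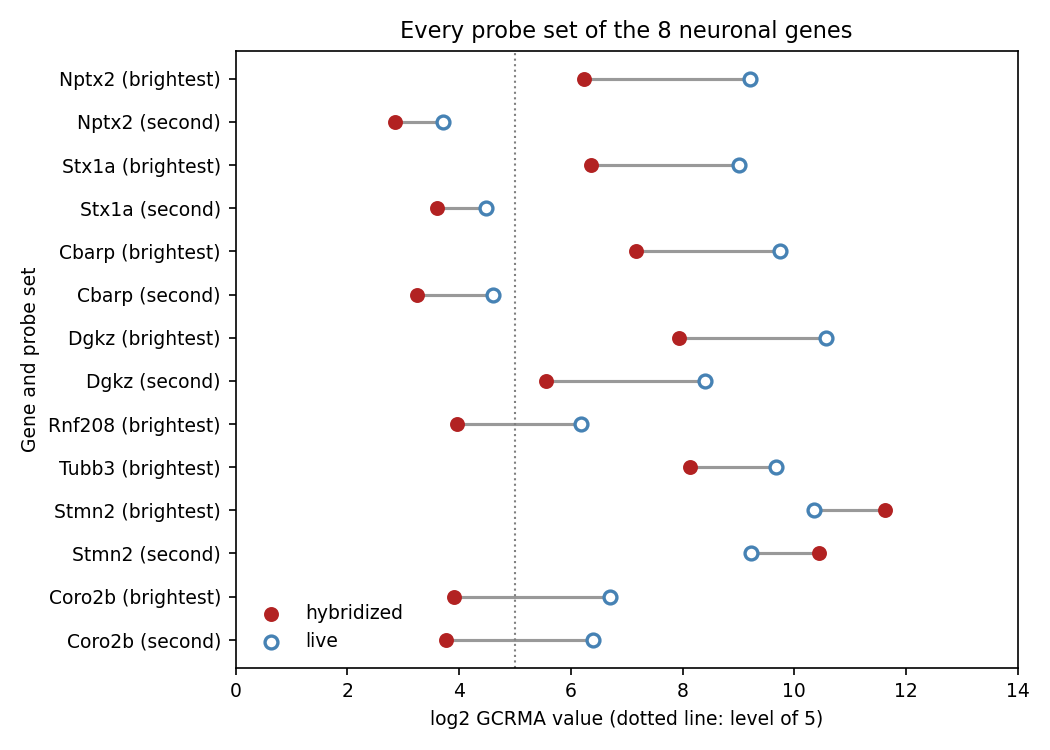
Log2 GCRMA value (horizontal axis) of each of the 14 probe sets of the 8 genes on the hybridized array (filled red points) and the live array (open blue points), with the level of 5 dotted; brightest marks a gene's probe set of highest mean. The hybridized point lies left of the live point for 12 probe sets, and right of it for both probe sets of Stmn2.

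Nptx2 (Entrez 53324) encodes a secreted neuronal pentraxin, also called Narp, which gathers AMPA-type glutamate receptors at synapses. It read 6.24 in hybridized cells and 9.20 in live cells, a difference of -2.96 or 7.78-fold. Of 1006 genes whose mean lay within 0.5 of its own, it was the lowest. Its second probe set stayed under the level on both arrays, with 2.86 in hybridized cells and 3.72 in live cells, so the large difference rests on 1 of 2 probe sets.

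Stx1a (Entrez 20907) encodes syntaxin 1A, the plasma membrane SNARE of transmitter release. It read 6.36 in hybridized cells and 9.01 in live cells, a difference of -2.65. That value comes from a probe set with the suffix _x_at, whose probes may also match other transcripts. The other probe set of Stx1a read 3.61 in hybridized cells and 4.48 in live cells, lower by less than 2-fold and under the level.

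Cbarp (Entrez 100503659) encodes a membrane protein that binds the beta subunit of voltage-gated calcium channels and dampens their activity. It read 7.16 in hybridized cells and 9.74 in live cells, a difference of -2.58 on a probe set that also carries the suffix _x_at. Its second probe set differed by -1.37, with 3.24 in hybridized cells and 4.61 in live cells. The direction was therefore shared by both probe sets, the second of them under the level.

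Dgkz (Entrez 104418) encodes diacylglycerol kinase zeta, which turns the second messenger diacylglycerol into phosphatidic acid and is abundant in brain. It read 7.93 in hybridized cells and 10.56 in live cells. Its second probe set read 5.56 in hybridized cells and 8.40 in live cells. The differences of -2.63 and -2.84 on the 2 probe sets were close to each other, and both sets were at the level.

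Rnf208 (Entrez 68846), a gene of the RING finger family, to which many ubiquitin ligases belong, has 1 probe set. It read 3.96 in hybridized cells and 6.18 in live cells, a difference of -2.22. Coro2b (Entrez 235431) encodes coronin 2B, an actin-binding protein of the nervous system. It read 3.91 in hybridized cells and 6.70 in live cells, on a probe set with the suffix _x_at. Its second probe set, with 3.76 in hybridized cells and 6.40 in live cells, gave -2.64 beside the -2.79 of the first. Both genes were thus near the lower end of the scale in hybridized cells, where values have no order.

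Tubb3 (Entrez 22152) encodes class III beta-tubulin, the isotype stained with the TuJ1 antibody to mark young neurons. On its only probe set it read 8.14 in hybridized cells and 9.67 in live cells, a difference of -1.53 or 2.89-fold. Its difference was the smallest among the 7 lower genes: 388 genes at the level lay further below, against 56 or fewer for the other 6.

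Stmn2 (Entrez 20257) encodes stathmin 2, also called SCG10, a tubulin-binding protein of growing axons. It differed in direction from the rest, with 11.62 in hybridized cells and 10.35 in live cells, a difference of 1.27. The second probe set repeated this with 10.45 in hybridized cells and 9.23 in live cells, a difference of 1.22. At the level, 354 genes lay further above the live cells than Stmn2 did.

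**Figure D2:**
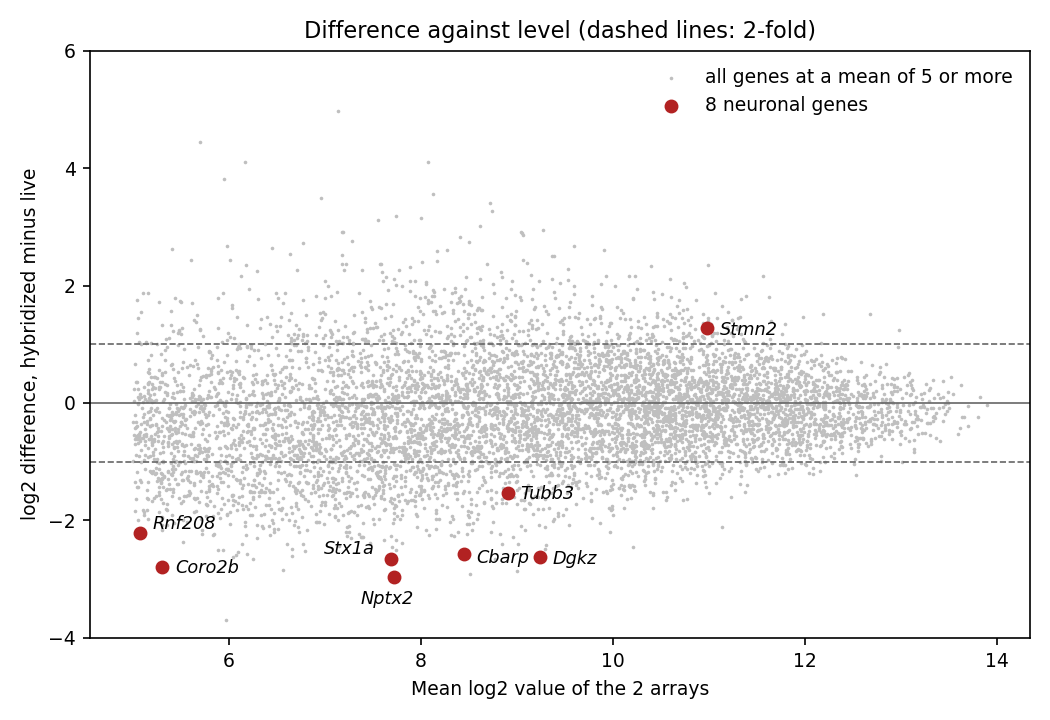
Difference of log2 values, hybridized minus live (vertical axis), against the mean log2 value of the 2 arrays (horizontal axis) for the 7262 genes at a mean of 5 or more (grey) and the 8 neuronal genes (red), with 2-fold dashed. Nptx2, Coro2b, Stx1a, Dgkz and Cbarp lie on the lower edge of the cloud, Tubb3 lies inside it and Stmn2 above the upper dashed line.

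A difference seen on the brightest probe set of a gene was often not repeated on the next. Over all 316 genes that were 2-fold lower on the brightest probe set and also had another at the level, 121, or 38.3%, were 2-fold lower on both. Among the 8 genes, Dgkz, Coro2b and Stmn2 were read by 2 probe sets at the level. Dgkz and Coro2b were 2-fold lower on both, and Stmn2 was 2-fold higher on both. The share of 38.3% covers lower genes only, so Stmn2 has no place in it. Because the 8 genes were chosen with this contrast known, Dgkz and Coro2b are not read against it either. Nptx2, Stx1a and Cbarp had their second probe set under the level, and Rnf208 and Tubb3 had none. Without probe sets of the suffix _x_at, an alternative added after the data were seen, Stx1a and Cbarp had no probe set at the level. Coro2b was then read by its other probe set, at -2.64, and 5 genes remained 2-fold lower.

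Control probe sets of the arrays differed as well. The array's control probe sets for Actb gave a 5' minus 3' log2 difference of -0.50 in hybridized cells and -3.02 in live cells, and those for Gapdh gave -0.12 in hybridized cells and -1.93 in live cells. The gain of 5' over 3' signal was 2.52 for Actb and 1.81 for Gapdh, and smaller for the other control transcripts, at 0.99 for pyruvate carboxylase, 0.50 for the transferrin receptor and 0.24 for 18S rRNA. The 18 hybridization control probe sets, which read transcripts spiked into the labelled sample, differed by a median of -0.80. Centred on them, the differences were -2.16 for Nptx2, -1.85 for Stx1a, -1.78 for Cbarp, -1.83 for Dgkz, -1.42 for Rnf208, -1.99 for Coro2b and 2.07 for Stmn2, while Tubb3 at -0.73 was no longer 2-fold lower. The part of these controls in the differences of the 8 genes was not tested.

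The promoters of genes that were lower together are shown for Dgkz, whose 2 probe sets both read at the level, for the SNARE gene Stx1a and for the neuronal marker Tubb3. They are RefSeq windows of the GRCm38.p6 assembly, 250 bases before to 50 bases after a transcript start, at chr2:91963514-91963813 (minus strand), chr5:135023232-135023531 (plus strand) and chr8:123411303-123411602 (plus strand). Capitals mark GGGCGG on either strand, the core of the GC box bound by Sp1-type factors; in Dgkz 2 of the matches overlap.
Dgkz: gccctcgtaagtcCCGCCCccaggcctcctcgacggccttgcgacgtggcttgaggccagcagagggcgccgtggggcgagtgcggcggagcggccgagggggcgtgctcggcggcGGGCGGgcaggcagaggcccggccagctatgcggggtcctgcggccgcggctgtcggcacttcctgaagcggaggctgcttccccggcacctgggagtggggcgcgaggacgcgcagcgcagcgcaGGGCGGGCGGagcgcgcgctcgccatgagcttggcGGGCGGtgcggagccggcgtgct
Stx1a: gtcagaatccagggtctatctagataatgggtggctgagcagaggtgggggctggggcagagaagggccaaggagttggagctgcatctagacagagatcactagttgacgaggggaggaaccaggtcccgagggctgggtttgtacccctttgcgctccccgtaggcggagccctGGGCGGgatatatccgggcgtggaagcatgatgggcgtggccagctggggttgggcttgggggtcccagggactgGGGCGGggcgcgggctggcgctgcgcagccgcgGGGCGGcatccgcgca
Tubb3: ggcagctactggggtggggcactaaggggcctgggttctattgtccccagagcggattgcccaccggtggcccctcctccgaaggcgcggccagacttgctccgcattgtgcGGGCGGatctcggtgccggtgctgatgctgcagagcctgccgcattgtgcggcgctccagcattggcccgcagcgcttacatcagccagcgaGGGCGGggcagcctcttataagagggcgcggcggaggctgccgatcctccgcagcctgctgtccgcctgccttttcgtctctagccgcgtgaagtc

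GGGCGG occurred 5 times in the window shown for Dgkz, 3 times in that of Stx1a and 2 times in that of Tubb3. The table holds a second window of Dgkz, at chr2:91950299-91950598, which has 1 match and a G and C content of 61.7%, against 77.7% in the richer window shown. At least 1 match was found in 5 of the 8 windows that the table holds for 6 of the genes, and in 35.7% of all 32851 windows. All windows here include those of genes that did not have to reach the level. TATAA, searched on both strands, was found in 1 of the 8 windows, that of Tubb3, where the 2 matches lie on opposite strands and overlap, and in 24.9% of all windows. Of 2 short parts of the REST recognition element searched on both strands, GGACAG was found in 4 of the 8 windows and 22.2% of all windows, and AGCACC in 2 of the 8 and 16.2% of all. Nptx2 and Stmn2 are named only.

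The 8 windows had a median G and C content of 66.8%, against 52.7% over all windows, which were not limited to genes at the level. Genes at the level were ranked by the G and C content of their promoters and cut into 4 groups, the second of which ended at 61.3%. Of the 1509 genes with the lowest content, 10.9% were at least 2-fold lower in hybridized cells, against 16.9%, 17.5% and 16.4% in the next 3 groups. The 6 genes with a window, all of them lower, lay in the upper 2 groups. These shares describe 2 arrays, and the part of base composition in the differences was not tested.

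Partners of syntaxin 1A in vesicle release differed among themselves. Snap25, the second SNARE of the plasma membrane, read 2.38 in both the hybridized and the live sample. Vamp2, the SNARE of the synaptic vesicle, was 1.06 higher, with 9.80 in hybridized cells and 8.74 in live cells, although its other probe set, under the level, differed by -0.87. Syn1, the vesicle protein synapsin I, was the furthest below on its only probe set, with 6.13 in hybridized cells and 8.07 in live cells. Amph (amphiphysin) differed by -1.32 and Rims2, a scaffold of the active zone, by -1.15, with 0.54 on a second probe set. Nsf, the ATPase that takes SNARE complexes apart, differed by -0.21, with 0.85 on a second probe set at the level. In all, 33 of 39 genes of presynaptic release had a probe set of their own, 11 reached the level, and of these 3 were 2-fold lower and 1 was 2-fold higher. Their median was -0.44 (0.36 when centred on the hybridization controls).

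Receptors and scaffolds on the other side of the synapse were mostly under the level. The AMPA receptor genes Gria1 to Gria4, whose products neuronal pentraxins gather, read at most 2.43 in hybridized cells and 2.19 in live cells, and Nptx1, a second neuronal pentraxin gene, read 2.78 in hybridized cells and 2.84 in live cells. Of 27 postsynaptic genes with a probe set, 8 reached the level, 2 of them 2-fold lower and 1 higher. Shank3, a scaffold of the postsynaptic density, read 4.10 in hybridized cells and 5.94 in live cells. Arc, an activity-regulated gene, read 6.14 in hybridized cells and 7.34 in live cells. Dlg3, a membrane-associated scaffold, was the higher one at 9.54 in hybridized cells and 7.39 in live cells. Camk2b, the member with the highest mean, differed by -0.77. The median of the 8 was -0.63 (0.17 when centred on the controls).

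Calcium channel subunits, the partners of Cbarp, reached the level in 3 of 15 cases, and 2 of these were 2-fold lower. Cacna1a, the pore of P/Q-type channels, read 8.30 in hybridized cells and 9.74 in live cells, and its second probe set differed by -1.63. Cacna2d2 differed by -1.67 on its brightest probe set and by -0.06 on another under the level. Cacnb1, a beta subunit, differed by -0.71. Centred on the hybridization controls, none of the 3 was 2-fold lower.

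The families of Tubb3, Stmn2, Dgkz, Coro2b and Stx1a were read gene by gene. The other beta-tubulins at the level, Tubb2a, Tubb2b, Tubb4b, Tubb5 and Tubb6, differed by -0.26 to -0.49, each less than Tubb3, and turned positive when centred on the hybridization controls. Tubb4a, a further neuronal isotype, was under the level with 3.80 in hybridized cells and 5.32 in live cells. Among stathmins, Stmn1 differed by -0.64 and Stmn3, a neuronal member, by -1.08, opposite in sign to Stmn2, while Stmn4 read 2.74 in hybridized cells and 2.65 in live cells. The second probe set of Stmn1 differed by 0.52, and that of Stmn3 by -0.33.

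The other diacylglycerol kinases at the level, Dgka at -0.41 and Dgke at -0.05, were within 2-fold, and Dgkq was under the level. The second probe set of Dgke, just under the level with a mean of 4.99, was 1.02 higher. The coronins at the level were within 2-fold too, Coro1a at 0.36, Coro1b at -0.73 and Coro1c at -0.06. The second probe sets of Coro1a and Coro1c were, however, 1.52 and 1.79 higher. Coro2a, the closest relative of Coro2b, read 3.35 in hybridized cells and 3.15 in live cells, and Coro6 differed by -0.94 under the level. Of 8 further syntaxins at the level, Stx5a (-1.51) and Stx6 (-1.29), which serve the Golgi and endosomes, were 2-fold lower. Their second probe sets, both at the level, differed by -1.02 and -1.39. Stx12, an endosomal member, was 1.06 higher. Stx3 differed by -0.93, with 0.33 on its second probe set, Stx4a by -0.26, Stx7 by -0.19, Stx8 by 0.11, with 1.39 on its second probe set at the level, and Stx18 by 0.02. Stx2, Stx17 and Stx19 were under the level.

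**Figure D3:**
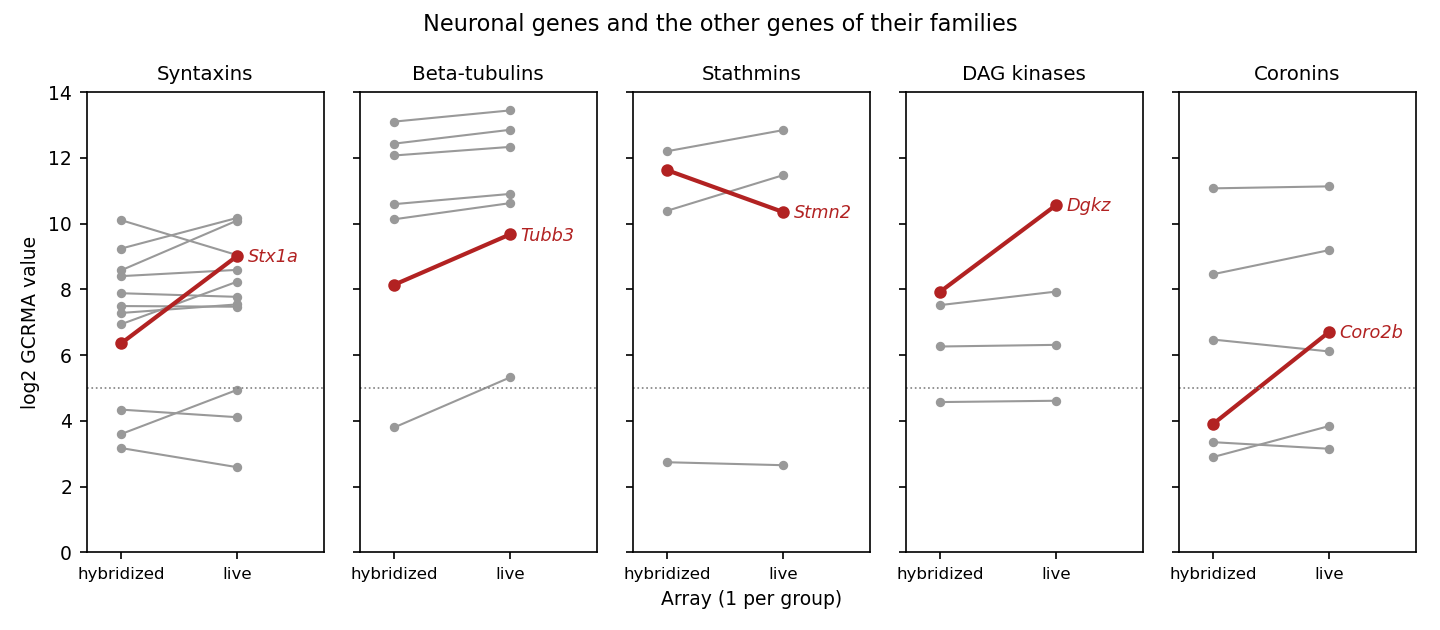
Log2 GCRMA value (vertical axis) on the hybridized and live arrays for Stx1a, Tubb3, Stmn2, Dgkz and Coro2b (red) and the other measured genes of their families (grey, brightest probe set), with the level of 5 dotted. Slopes, not heights, are comparable between genes: Dgkz, Coro2b, Stx1a and Tubb3 are lower in hybridized cells by 1.53 to 2.79, and Stmn2 is higher by 1.27.

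Neuronal cytoskeleton genes, a list that shares 5 tubulin and stathmin genes with these families, differed in both directions. Of 31 with a probe set 14 reached the level, 2 of them 2-fold lower and 1 higher. Their median was -0.31 (0.49 when centred on the controls). Basp1, a growth cone protein, read 8.92 in hybridized cells and 10.00 in live cells, and Stmn3, given above, was the other lower one. Map1b, a microtubule-associated protein of axons, was higher at 7.93 in hybridized cells and 6.84 in live cells, and its second probe set by 1.28. Tubb2b, with the highest mean, differed by -0.34.

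Neuronal RNA-binding proteins and transcription factors reached the level in 7 of 29 cases. Ptbp2, the neuronal splicing repressor, was higher at 10.33 in hybridized cells and 8.44 in live cells, while its second probe set, under the level, differed by -0.47. Rbfox2, a splicing factor of several tissues, was 1.38 higher, and 2.84 higher on its second probe set. Ebf1 differed by -1.72 on its brightest probe set and by 0.91 on the next. Elavl2, with the highest mean, was within 2-fold at 0.39.

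Joined, the 5 lists of neuronal function held 135 genes with a probe set, of which 43 reached the level. Of the 43, 10 were 2-fold lower, or 23.3%, and 5 were 2-fold higher, or 11.6%, beside 15.4% and 8.43% of all genes at the level. The share of 2-fold lower genes was smaller at higher means. Among genes with a mean near that of Rnf208 (5.07) it was 27.7%, near Nptx2 (7.72) 23.7% and near Stmn2 (10.99) 5.90%. The 43 genes were not matched for level, so 23.3% against 15.4% is not read as an excess. Centred on the hybridization controls the balance turned over here too, with 2 of the 43 lower and 10 higher, and the median of the 43 was 0.36 in place of -0.44. Most of the 135, namely 92 or 68.1%, were under the level, compared with 41.4% of all genes.

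**Figure D4:**
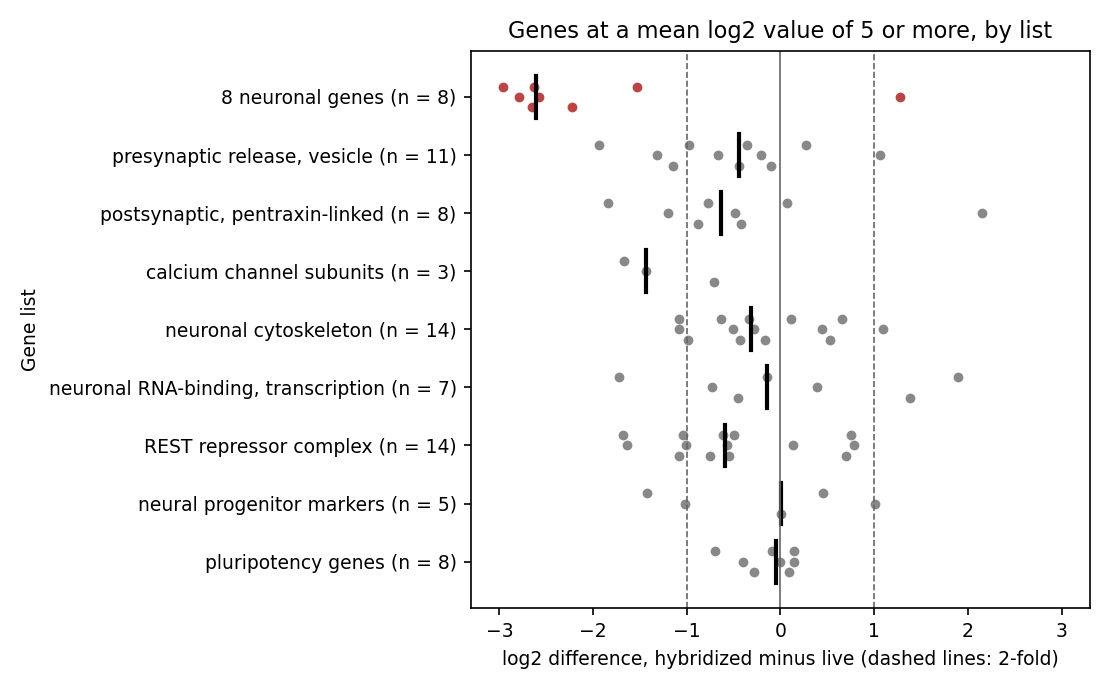
Difference of log2 values, hybridized minus live (horizontal axis), of each gene at a mean of 5 or more in 9 lists; points are genes, black bars are medians and dashed lines mark 2-fold. The 8 neuronal genes, which were chosen with these values known, have a median of -2.61. Medians of the other lists run from -1.44 for calcium channel subunits to 0.01 for neural progenitor markers. Over all probe sets of each gene the neural progenitor median was -0.81.

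Genes of the REST repressor machinery were mostly measured, 14 of 16 at the level. Of these 5 were 2-fold lower, or 35.7%, and 0 were 2-fold higher, beside 15.4% and 8.43% of all genes at the level. These shares were not matched for level either. The 5 were Kdm5c, a histone demethylase (-1.68), Hmg20b (-1.64), the corepressor Rcor2 (-1.08), the scaffold Sin3a (-1.04) and the methyltransferase Ehmt2 (-1.01). Hmg20b reached the level only just, with a mean of 5.03. The second probe set of Sin3a, at the level, differed by -0.16, and those of Kdm5c and Ehmt2, under the level, by 0.55 and 0.46. Among other second probe sets at the level, that of Rcor1 was 1.37 higher, and those of Ctdsp2 and Phf21a differed by -1.31 and -1.18. Centred on the hybridization controls, none of the 14 was 2-fold lower and 3 were 2-fold higher. Rest itself, named here after its values were seen, read 10.67 in hybridized cells and 9.89 in live cells. The second probe set of Rest, at the level, differed by 0.12. Kdm1a, the demethylase of the complex and its brightest member, differed by -0.55, with 0.40 on its second probe set at the level. The median of the 14 was -0.59 (0.21 when centred on the controls).

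The labelled cell type was checked against 8 pluripotency genes. Pou5f1, Nanog, Sox2, Zfp42, Klf4, Esrrb, Tdgf1 and Dppa5a read 10.83 to 13.17 in hybridized cells and 11.53 to 13.14 in live cells, and 0 were 2-fold apart. Of 14 markers of mature neurons 10 were under the level on the mean of the arrays, and these read at most 4.42 on either array. Rbfox3 read 2.50 in hybridized cells and 2.51 in live cells, and Map2, Syt1, Dcx and Snap25 read at most 2.84. The exceptions were Syn1, Ina, Eno2 and Nefl, the last at 8.62 in hybridized cells and 8.79 in live cells. The mean log2 value over the 14 markers was 4.25 in hybridized cells and 4.52 in live cells. These means are not centred on the hybridization controls and mostly cover genes under the level, so their gap is not read as a change. In bulk samples fewer cells of a type and less RNA per cell cannot be told apart.

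Of 18 neural progenitor markers with a probe set 5 reached the level, with Msi1 (-1.42) and Olig2 (-1.02) 2-fold lower and Slc1a3 (1.01) higher; the second probe sets of Msi1 and Slc1a3, under the level, differed by -0.06 and -0.46. Of the rest, Sox1 and Pax6 read at most 2.89 on either array. The mean log2 value over the 18 was 4.36 in hybridized cells and 4.68 in live cells. Most of the 18 were under the level, so this gap is not read as a change either. Notch1 differed by 0.01 on its brightest probe set and by -1.76 on its second, at the level. Over all probe sets of each gene the median of the progenitor list was -0.81 in place of 0.01. Of 10 neuroendocrine markers 2 reached the level, Chga at -1.19 and Cpe at 0.42. Astrocyte markers reached it in 3 of 7 cases and oligodendrocyte markers in 1 of 7, with Gja1 and Cnp as the brightest, which many other cells express too. On their brightest probe sets 0 of these 4 were 2-fold apart, but the second probe set of Gja1 was 1.36 higher. Without suffixed probe sets Gja1 was the only astrocyte marker at the level, so the median of 1.36 in place of -0.18 is its value alone. Fibroblast markers reached it in 3 of 14 cases, Col5a1 (-2.15), Col1a1 (-1.71) and Vim (-0.15). The second probe sets of Col5a1, at the level, and Col1a1, under it, differed by -0.04 and 0.40, and over all probe sets of each gene the median of this list was -0.07 in place of -1.71. The mean log2 value of the 14 was 3.55 in hybridized cells and 4.09 in live cells, again mostly over genes under the level. The part of such cells in the values of the 8 genes was not tested.

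Genes whose pair of log2 values lay nearest to each of the 8, by Euclidean distance over 2 arrays, included few known from neurons. Nptx2 was nearest to Stx1a, at a distance of 0.22, and then to the lysosomal enzyme gene Gaa. Stx1a was nearest to Gaa and to the dynactin subunit Dctn1, Dgkz to E130309D02Rik and Ptms, and Cbarp to Zbtb45 and Susd2. Rnf208 was nearest to Ascl2 and Rap1gap, Coro2b to Gsn and Adamts10, Tubb3 to Ctdp1 and Tmem214, and Stmn2 to Tgoln1 and Dnaja2. With 2 arrays and probe sets of unequal brightness such nearness describes the values only.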

How the data were processed

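RNA of 1 hybridized and 1 live iPSC sample, grouped by the sample type in the labels, was isolated (Trizol LS), amplified (NuGEN Ovation) and tagged with biotin, per the labels' protocols. The table the authors deposited holds a log2 GCRMA value for each probe set; the log base is inferred from the range of 1.02 to 14.24, since the file names none. GCRMA and affy are named in the submitters' processing notes. The set of arrays used in that normalization is not stated.

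Of 22690 probe sets, 64 are controls, 20380 have 1 gene in the platform annotation, 691 have several and 1555 are unnamed here. The last 2 groups and the controls were left out of the gene values. Each gene took its probe set with the highest mean, and a mean of 5 or more was required for counts. Low values have no order, and the level is a set limit, not a detection test. There is 1 array per group, hence no model and no p-value.

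The members and the 18 other gene lists were chosen with earlier results of these data known. Genes named are the 8 members with all probe sets, in each list up to 3 at least 2-fold apart in each direction and the one with the highest mean, all measured genes of 5 families, and the 2 nearest genes of each member. Further genes were picked as examples with their values in view. Alternatives tried were levels of 4, 7 and none, the mean over probe sets, no suffixed probe sets, centring on the median gene or the hybridization controls, loess (span 0.3), quantile normalization and folds of 1.5 and 4. Software was numpy 2.4.6, pandas 2.3.3, statsmodels 0.14.6 and matplotlib 3.10.9 under Python 3.11.15.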

Additional observations from a re-analysis of the deposited data

How the results depend on the processing

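Under the 7 alternatives that can move a single difference, the 8 genes gave 52 values, all with the sign reported. That agreement was largely set in advance. Centring subtracted -0.17 or -0.80, smaller in size than any of the 8 differences. Some of the 52 repeat the reported value, where an alternative kept a gene's probe set. Stx1a and Cbarp gave 5 values each, since without _x_at probe sets they had none at the level. Of the 52, 10 moved by more than 0.73, the spread between probe sets of a gene. The ranges were -2.97 to -1.91 for Nptx2, -2.64 to -1.76 for Stx1a, -2.61 to -1.78 for Cbarp, -2.84 to -1.83 for Dgkz, -2.22 to -1.42 for Rnf208, -2.74 to -1.99 for Coro2b, -1.57 to -0.73 for Tubb3 and 1.23 to 2.07 for Stmn2. The number of the 8 genes at least 2-fold lower was 7, but 6 when centred on the hybridization controls, 5 at a level of 7, which Rnf208 and Coro2b do not reach, 5 without suffixed probe sets, and 6 at 4-fold, where 0 were higher. Over all genes, 1115 lower and 612 higher became 206 and 2310 when centred on the controls, 833 and 814 when centred on the median gene, 708 and 838 after loess, 2169 and 1268 at 1.5-fold, and 113 and 87 at 4-fold; at a level of 7, 713 were lower. The share of lower calls thus depends on the centring. The median of calcium channel subunits changed sign, to 0.08, with no limit on level, since genes near the lower end then entered. No paired analysis was possible because each group has 1 array.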
